A study of Mus musculus with 9 samples.

Results

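Aminoacyl-tRNA synthetases are the enzymes that load each amino acid onto its tRNA. Their genes were followed here in BV2 microglial cells exposed to silica-coated magnetic nanoparticles. The members were 36 genes chosen by symbol from a table of 40993 genes. Of these, 20 code for cytosolic enzymes and 16, whose symbols end in 2, for mitochondrial ones. BV2 is a single immortalized murine microglial line. RNA-seq libraries came from non-treated control cultures, from cells given 10 µg/ml MNPs@SiO2(RITC) and from cells given 100 µg/ml (0.01 and 0.1 µg/µl in the labels), with an exposure of 12 h and 3 libraries per group. MNPs@SiO2(RITC) are particles with a cobalt ferrite core and a silica shell that holds the dye rhodamine B isothiocyanate. All values are FPKM, fragment numbers scaled by transcript length and library depth, so levels of genes of different length can be compared.

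Each synthetase recognises 1 amino acid and its tRNAs, and the charged tRNA is then carried to the ribosome. The cytosol and the mitochondria keep largely separate sets, both encoded in the nucleus, and a few genes, such as Gars and Kars, supply both compartments. The enzymes fall into 2 structural classes, I and II, and 8 of the cytosolic genes listed here (Dars, Eprs, Iars, Kars, Lars, Mars, Qars and Rars) code for members of a multisynthetase complex. Many cytosolic synthetase genes are known targets of ATF4, the transcription factor that is made when uncharged tRNA activates the kinase GCN2 or when other stresses lead to phosphorylation of eIF2α.

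Sequencing depth, estimated from the steps between low FPKM values, lay between 13000000 and 16100000 fragments per library. Of the microglial markers, 8 of 10 had a mean of at least 1 FPKM, and their summed level was 927 to 1030 FPKM in control, 936 to 958 at 10 µg/ml and 861 to 951 at 100 µg/ml. Csf1r (116 to 145 FPKM) and Itgam (43.6 to 64.6 FPKM) were well above that mark. Aif1, which codes for Iba1, was at 6.22 to 7.09 FPKM in control, 4.09 to 5.65 at 10 µg/ml and 2.77 to 4.92 at 100 µg/ml. P2ry12 and Cx3cr1, markers of resting microglia in the brain, were below 1 FPKM. None of the neuronal, astrocyte, oligodendrocyte or fibroblast markers reached a mean of 1 FPKM, and the summed level of each of those lists was at most 1.44 FPKM in any library. Replicate 1 at 100 µg/ml stood apart from the other libraries on the first principal component (-33.1 against -6.6 to 10.1), and control replicate 2 on the second (-29.2 against -6.1 to 16.9). Where leaving out either library changes a call, the value without it is given with the result. The labels do not say that libraries came from separate cultures, so p-values measure only the spread between these samples, which may be technical. In RNA pooled from a culture, fewer cells with a transcript and less of it per cell cannot be told apart.

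All 36 genes had a mean level of 1 FPKM or more over the 9 libraries and were tested. In control cells, the cytosolic genes were the more abundant set, with mean levels from 31.5 FPKM (Cars, cysteinyl-tRNA synthetase) to 178 FPKM (Eprs, the fused glutamyl- and prolyl-tRNA synthetase) and a median of 97.3 FPKM. The mitochondrial genes ran from 4.35 FPKM (Ears2, glutamate) to 85.6 FPKM (Lars2, leucine), with a median of 12.7 FPKM. Thus 9 cytosolic genes and 0 mitochondrial genes had control means above 100 FPKM. Behind these levels stood an estimated 1029 or more fragments per library for every cytosolic gene and 133 or more for every mitochondrial gene. The estimate takes the longest transcript of each gene, so it is too high where shorter transcripts prevail. Only for leucine was the mitochondrial gene the higher of the pair: Lars was at 58.8 FPKM and Lars2 at 85.6 FPKM.

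The first question was which synthetase genes differed between 100 µg/ml MNPs@SiO2(RITC)-treated cells and the non-treated control. Nars and Aars, which charge tRNA with asparagine and alanine, fell by 21.5% and 21.1%. They were the only 2 of the 20 cytosolic genes past an adjusted p of 0.05 (limma, Benjamini-Hochberg over 11161 genes), and 0 were higher. Among all genes tested, 2.11% passed, 0.708% higher and 1.41% lower. None of the 16 mitochondrial genes passed. At an unadjusted p under 0.05, 1 cytosolic gene was higher and 6 were lower, and 3 mitochondrial genes were higher and 2 were lower, against 9.67% of all genes higher and 9.69% lower.

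Nars (ENSMUSG00000024587) was at 158, 161 and 151 FPKM in control, 157, 148 and 151 FPKM at 10 µg/ml, and 132, 122 and 115 FPKM at 100 µg/ml. All 3 libraries at 100 µg/ml lay below the other 6, which overlapped. On the log2(FPKM + 1) scale the change was -0.35 (SE 0.060, adjusted p = 0.0239 in limma). Without control replicate 2 it was -0.33 and did not pass (adjusted p = 0.117 in limma).

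Aars (ENSMUSG00000031960, GRCm38 chr8:111033144-111057664, plus strand) was at 81.6, 90.2 and 88.7 FPKM in control, 85.3, 79.0 and 82.7 FPKM at 10 µg/ml, and 68.8, 66.9 and 69.9 FPKM at 100 µg/ml. Here too the 100 µg/ml libraries lay below all others. They spread less (SD 1.54) than the control libraries (SD 4.63). The log2 change was -0.34 (SE 0.055, adjusted p = 0.0198 in limma). Without control replicate 2 it was -0.31 and did not pass (adjusted p = 0.0994 in limma).

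A further 4 cytosolic genes had lower values in all 3 libraries at 100 µg/ml than in any control library, without passing the adjusted threshold. Cars was at 30.0, 32.7 and 31.8 FPKM in control and 26.9, 26 and 24.7 FPKM at 100 µg/ml (log2 difference -0.28, adjusted p = 0.0657 in limma). Without replicate 1 at 100 µg/ml Cars differed by -0.30 and passed (adjusted p = 0.0452 in limma). Iars, the isoleucyl enzyme of the complex, was at 89.4, 99.0 and 92.2 FPKM in control and 71.1, 83.5 and 82.3 FPKM at 100 µg/ml (-0.24, adjusted p = 0.109 in limma). Replicate 1 gave the lowest of these treated values. Yars, which handles tyrosine, differed by -0.17 and Eprs by -0.16 (adjusted p = 0.199 and 0.197 in limma). In Eprs, replicate 1 at 100 µg/ml was again the lowest library (147 FPKM, against 168 and 165 FPKM in the other two). After the GC and length correction Cars, Iars and Eprs passed (adjusted p = 0.0274, 0.0294 and 0.0375 in limma). Cars also passed under quantile normalization (adjusted p = 0.0490 in limma).

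Counting by overlap, 6 cytosolic genes were lower in every 100 µg/ml library than in every control library and 2 were higher. Of all genes tested, 11.4% were lower in this sense and 12.5% higher, 23.8% in all. The higher genes were Farsa, the catalytic subunit of the phenylalanyl enzyme (96.2, 100 and 94.9 FPKM against 117.5, 103 and 103 FPKM), and Hars, the histidyl enzyme (66.2, 65.8 and 61.4 FPKM against 76.2, 69.2 and 67.1 FPKM). Neither passed the adjusted threshold (log2 differences 0.15 and 0.13, adjusted p = 0.238 and 0.260 in limma). Both had their highest value in replicate 1. Farsb, the other subunit of the phenylalanyl enzyme, differed by 0.07 and its groups overlapped. Hars shares 198 bases with Hars2 on the opposite strand, and the sources used here do not give whether the counting used strand.

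**Figure D1:**
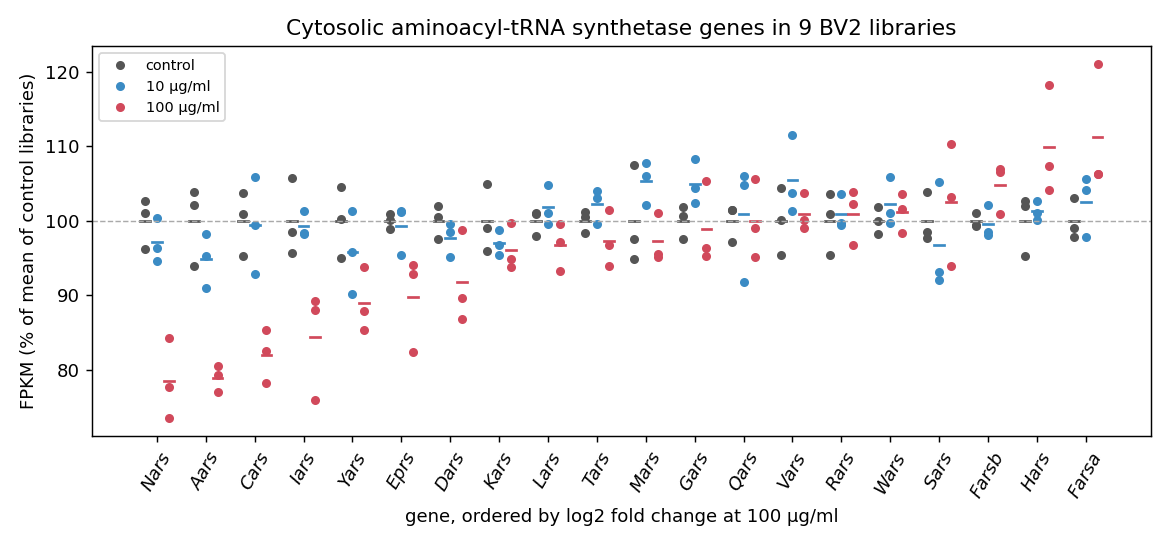
FPKM of the 20 cytosolic synthetase genes in each library, as a percent of the gene's mean in the 3 control libraries (y axis), with genes on the x axis ordered by log2 fold change at 100 µg/ml. Points are libraries and short lines are group means; the 3 red points of Nars, Aars and Cars lie below every grey control point, and those of Farsa and Hars above.

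The other 12 cytosolic genes overlapped between control and 100 µg/ml. Dars (aspartate) was the lowest of them at -0.13 on the log2 scale (adjusted p = 0.269 in limma), with 110.4, 100.1 and 97.1 FPKM at 100 µg/ml against 114, 112 and 109 FPKM in control. Its replicate 1 lay within the control range and the other two treated libraries below it. Without that replicate Dars differed by -0.18 and passed (adjusted p = 0.0482 in limma). The remaining genes ran from -0.06 (Kars, lysine) through Lars (leucine, -0.05), Tars (threonine, -0.04), Mars (methionine, -0.04), Gars (glycine, -0.02) and Qars (glutamine, -0.0018) to Vars (valine, 0.01), Rars (arginine, 0.01), Wars (tryptophan, 0.02), Sars (serine, 0.03) and Farsb (0.07). For Rars, among the most abundant of the set, the 95% interval of the log2 difference ran from -0.10 to 0.13, and for Wars from -0.09 to 0.12. Over all 20 cytosolic genes, 13 were below 0 and the median log2 difference was -0.04, whereas 50.4% of all genes tested were below 0 and their median was -0.002. Summed over the 20 genes, the level was 1993 to 2046 FPKM in control, 1988 to 2030 FPKM at 10 µg/ml and 1890 to 1970 FPKM at 100 µg/ml, so the highest-dose libraries lay below all others.

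The count of genes past the threshold depended on single libraries. Without control replicate 2 or 3, or replicate 2 or 3 at 100 µg/ml, 0 cytosolic genes passed, and without control replicate 1 or replicate 3 at 10 µg/ml 1 passed. Leaving out control replicate 2 took the calls among all genes from 236 to 31. Without replicate 1 at 100 µg/ml, 4 passed: Nars, Aars, Cars and Dars. Across the 18 alternatives, the log2 change of Nars stayed between -0.40 and -0.30 (adjusted p from 0.00689 to 0.117) and that of Aars between -0.38 and -0.31 (adjusted p from 0.0178 to 0.0994). Fitted on the 6 libraries of this comparison alone, limma called 0 cytosolic genes, and 22 of all genes in place of 236.

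The 12 cytosolic synthetases known from textbooks as ATF4 or amino acid response genes were set against the other 8. This list is Aars, Cars, Eprs, Gars, Iars, Lars, Mars, Nars, Sars, Tars, Wars and Yars. Both called genes and all 6 genes that were lower without overlap belong to it. In the list, 10 of 12 genes were below 0 at 100 µg/ml and the median log2 difference was -0.10. Of all genes tested, 1.41% passed the adjusted threshold as lower, 11.4% were lower without overlap and 50.4% were below 0. The list was chosen with earlier results of these data known, so its difference from the other 8 genes was not tested. Of the other 8, 3 were below 0, 0 passed the adjusted threshold, 1 (Farsa) was higher at an unadjusted p under 0.05 in limma, and the median was 0.01. The summed level of the 12 genes was 1140 to 1166 FPKM in control, 1122 to 1155 FPKM at 10 µg/ml and 1035 to 1059 FPKM at 100 µg/ml. That of the other 8 was 853 to 880 FPKM, 866 to 875 FPKM and 855 to 911 FPKM, with overlap of all 3 groups. Sars and Wars in the list had values close to control, and Gars, also in the list, was at 85.9, 88.6 and 89.7 FPKM in control and 92.8, 84.8 and 83.9 FPKM at 100 µg/ml.

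The cytosolic genes were also divided by membership of the multisynthetase complex, and all members by structural class. Among the 8 complex genes 0 passed the adjusted threshold, 2 (Eprs and Iars) were lower at an unadjusted p under 0.05 in limma, and the median log2 difference was -0.05. Among the 12 cytosolic genes outside the complex, 2 passed and the median was -0.001. Both called genes are of class II, of which 17 members had a median of -0.02. The 19 members of class I had a median of -0.002 and 0 adjusted calls, with 1 higher and 4 lower at an unadjusted p under 0.05 in limma. Among all genes 2.11% passed the adjusted threshold, and 9.67% were higher and 9.69% lower at an unadjusted p under 0.05, and none of these groups is called different from the rest.

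The promoters of these genes were searched for 3 short motifs on both strands, in windows of 300 bases from 250 before to 50 after the RefSeq start site (GRCm38.p6). Of the 36 members, 27 had a window. TGATGNAA, the CEBP-ATF response element to which ATF4 binds, was in 5 of 13 cytosolic genes with a window (38.5%) and 0 of 14 mitochondrial ones. It was in 3.97% of 32851 windows in all. Shares of members count genes, and a gene holds a motif if any of its windows does. They are thus not in the same unit as the share of all windows. All 5 genes are among the 12 ATF4-linked synthetases, of which 8 had a window. None of the 5 other cytosolic genes with a window held it. At a share of 3.97% of windows, 0 of 14 mitochondrial genes is near the background. The matches are printed to show where the element lies in the ATF4-linked synthetase genes that hold it. They are given with capitals marking the match and the gene strand read 5′ to 3′. A match on the opposite strand reads as the reverse complement of the motif. Positions count from the start site at 0. For comparison, the matches of Asns, the asparagine synthetase gene, and Trib3, a pseudokinase gene, both textbook ATF4 targets, are given too.

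Aars, first base at -112, chr8:111033704-111033763, plus strand: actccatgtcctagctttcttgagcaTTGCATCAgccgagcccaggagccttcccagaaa
Aars, first base at 9, chr8:111033825-111033884, plus strand: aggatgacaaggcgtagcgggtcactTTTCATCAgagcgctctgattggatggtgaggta
Iars, first base at 7, chr13:49682111-49682170, plus strand: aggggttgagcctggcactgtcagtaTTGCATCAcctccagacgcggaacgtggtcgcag
Yars, first base at 3, chr4:129189880-129189939, plus strand: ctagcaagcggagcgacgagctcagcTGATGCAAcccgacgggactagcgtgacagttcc
Gars, first base at -30, chr6:55037945-55038004, plus strand: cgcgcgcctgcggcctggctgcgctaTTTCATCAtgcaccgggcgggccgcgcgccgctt
Tars, first base at -15, chr15:11399640-11399699, minus strand: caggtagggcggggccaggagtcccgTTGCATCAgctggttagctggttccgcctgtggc
Asns, first base at -23, chr6:7693199-7693258, minus strand: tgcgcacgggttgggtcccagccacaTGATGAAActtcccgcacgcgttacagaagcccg
Trib3, first base at 14, chr2:152344013-152344072, minus strand: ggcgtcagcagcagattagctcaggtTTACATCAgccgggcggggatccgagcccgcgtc

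A match did not go with a lower level in each case. Of the 5 genes with the element, Aars, Iars and Yars were lower without overlap at 100 µg/ml, whereas Gars and Tars overlapped control (log2 differences -0.02 and -0.04). A synthetase gene not printed may lack a window rather than the element. Of 24 ATF4 and amino acid response genes with a window, 7 held it. Besides Asns and Trib3 these were Nupr1 (-0.74, lower without overlap), Slc7a11 (-0.35) and Atf3 (0.08), which both overlapped control, and Chac1 and Vldlr, not tested. These are named for their match, outside the rule for naming genes. CACGTG, the E-box of MYC and MAX, was in 4 of 13 cytosolic genes with a window (Aars, Farsb, Iars and Tars), 1 of 14 mitochondrial ones (Ears2) and 7.15% of all windows. The NRF1 element was in 3 of these 13 genes (Farsb, Kars and Tars), 2 of the 14 (Iars2 and Mars2) and 4.60% of all windows. In the Tars window a match of the NRF1 element begins directly after CACGTG without overlapping it.

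Of the 16 mitochondrial synthetase genes, Lars2 had the largest difference at 100 µg/ml. Lars2 (ENSMUSG00000035202, GRCm38 chr9:123366940-123462664, plus strand) was at 91.1, 85.9 and 79.8 FPKM in control, 87.3, 86.3 and 101.5 FPKM at 10 µg/ml, and 127, 98.7 and 111 FPKM at 100 µg/ml. The 100 µg/ml libraries lay above every control library but not above every 10 µg/ml library. Their mean of 112 ± 14.2 FPKM (SD, n = 3) was 31.2% above the control mean of 85.6 ± 5.69 FPKM. The log2 difference was 0.38 (SE 0.10) with an adjusted p of 0.0911 in limma, and it passed only after quantile normalization (adjusted p = 0.0377; range over the alternatives 0.0377 to 0.234).

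Fars2 and Aars2, for phenylalanine and alanine, were also higher in every 100 µg/ml library than in every control library. Fars2 was at 9.07, 8.90 and 8.79 FPKM in control and 11.8, 10.1 and 10.4 FPKM at 100 µg/ml (log2 difference 0.25, adjusted p = 0.229 in limma). Aars2 was at 7.19, 6.92 and 7.25 FPKM in control, 7.94, 8.27 and 7.85 FPKM at 10 µg/ml, and 8.12, 8.0 and 8.22 FPKM at 100 µg/ml (0.17, adjusted p = 0.159 in limma). Aars2 was thus above all control libraries at both doses, at about the same level.

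Pars2 and Sars2, for proline and serine, lay the other way. Pars2 was at 11.6, 9.91 and 9.92 FPKM in control and 7.87, 8.82 and 9.57 FPKM at 100 µg/ml (log2 difference -0.23, adjusted p = 0.199 in limma). Sars2 was at 7.10, 7.92 and 7.68 FPKM in control and 6.98, 6.10 and 6.50 FPKM at 100 µg/ml (-0.19, adjusted p = 0.194 in limma). Both groups of Sars2 were separated by only a small gap, and this gene had the fewest estimated fragments of the set (133 in its lowest library).

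The remaining 11 mitochondrial genes overlapped between control and 100 µg/ml. Their log2 differences were -0.09 for Hars2, -0.07 for Mars2, -0.04 for Vars2, -0.02 for Ears2, 0.0072 for Iars2, 0.03 for Yars2, 0.05 for Cars2, 0.06 for both Nars2 and Tars2, 0.11 for Wars2 and 0.17 for Rars2. Intervals were wider than for the cytosolic genes: for Vars2 the 95% interval ran from -0.36 to 0.28 and for Hars2 from -0.34 to 0.16. The median SE of the log2 difference was 0.092 in the mitochondrial set and 0.058 in the cytosolic set. In all, 6 of 16 mitochondrial genes were below 0 and their median was 0.04. The summed level was 333 to 338 FPKM in control, 340 to 358 FPKM at 10 µg/ml and 354 to 378 FPKM at 100 µg/ml. Much of this difference lay in Lars2 alone, with group means of 85.6, 91.7 and 112 FPKM. Cars2 and Iars2 share 940 and 2018 bases with genes on the opposite strand (Carkd and Rab3gap2), so their values may hold reads of those genes.

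**Figure D2:**
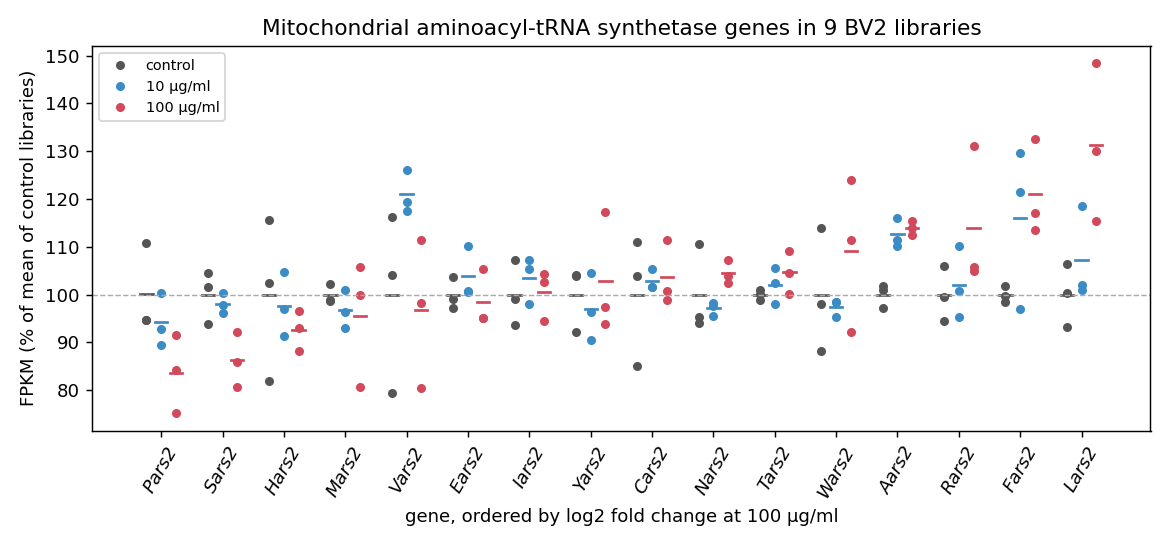
FPKM of the 16 mitochondrial synthetase genes in each library, as a percent of the gene's mean in the 3 control libraries (y axis), with genes on the x axis ordered by log2 fold change at 100 µg/ml. Points are libraries and short lines are group means; the red points lie above all grey points for Lars2, Fars2 and Aars2 and below them for Pars2 and Sars2.

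To set the mitochondrial genes beside the cytosolic ones, the ratio of the 2 genes for the same amino acid was taken within each library. For 17 such pairs, the log2 ratio of FPKM was compared between groups with a two-sided exact permutation test, which with 3 libraries against 3 cannot go below p = 0.1. At 100 µg/ml the ratio was lower than in every control library for 8 pairs and higher for 1. Each of these 9 had p = 0.1, or 0.189 after adjustment over the 17 pairs (exact permutation test), so no pair could pass a threshold of 0.05. Of all single genes tested, 23.8% were without overlap in this comparison. No such share was taken for ratios of other gene pairs, so nothing is read from the count of pairs.

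The alanine pair had the largest difference. Aars exceeded Aars2 by 11.3, 13 and 12.2 times in control, 10.8, 9.55 and 10.5 times at 10 µg/ml, and 8.48, 8.35 and 8.50 times at 100 µg/ml. The 3 groups were ordered by dose without overlap, and the 100 µg/ml mean was 0.53 log2 units below control (3.08 against 3.61). The difference at 10 µg/ml was -0.25 (p = 0.1, or 0.992 after adjustment over the 17 pairs, exact permutation test). At that dose Aars overlapped control, whereas Aars2 was near its 100 µg/ml level (means 8.02 and 8.11 FPKM, control 7.12).

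For leucine, the ratio of Lars to Lars2 was 0.632, 0.691 and 0.743 in control and 0.461, 0.578 and 0.493 at 100 µg/ml, a log2 difference of -0.44. The asparagine (-0.42), cysteine (-0.34) and isoleucine (-0.25) pairs were also lower without overlap, as were Farsb to Fars2 (-0.20), Farsa to Fars2 (-0.12) and Tars to Tars2 (-0.10). Only the serine pair was higher without overlap. Sars exceeded Sars2 by 21.9, 18.4 and 19.2 times in control and by 23.6, 23.0 and 23.7 times at 100 µg/ml. The log2 difference was 0.25. In the other 8 pairs the groups overlapped, with differences in both directions. These were 0.23 for Hars to Hars2, 0.10 for Eprs to Pars2, 0.06 for Vars to Vars2 and 0.04 for Mars to Mars2. Lower means were found for Yars to Yars2 (-0.20), Rars to Rars2 (-0.17), Eprs to Ears2 (-0.135) and Wars to Wars2 (-0.11). Eprs was paired with both Ears2 and Pars2, and Fars2 with both subunit genes, so the 17 pairs are not independent.

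**Figure D3:**
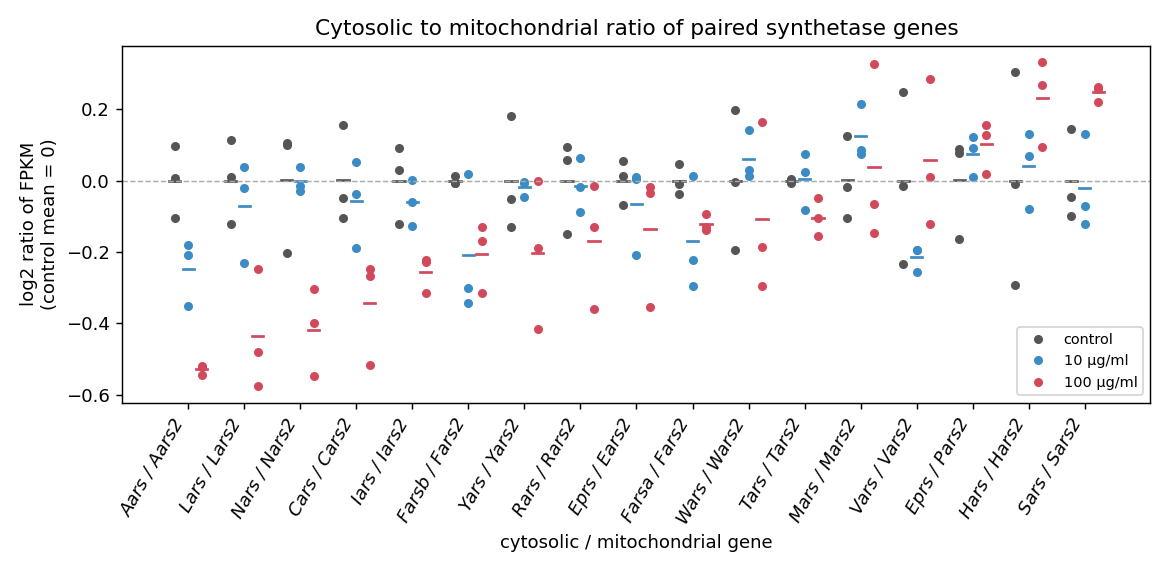
Log2 ratio of the cytosolic to the mitochondrial FPKM for 17 pairs in each library, shifted so that the mean of the 3 control libraries is 0 (y axis), with pairs on the x axis ordered by the difference at 100 µg/ml. Points are libraries and short lines are group means; the red points of Aars / Aars2 lie 0.53 below the control mean, and those of Sars / Sars2 lie above all control points.

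At 10 µg/ml the synthetase genes stayed close to control. In limma, 0 of the 36 genes passed the adjusted threshold, as did 0 of all genes tested, and at an unadjusted p under 0.05 there was 1, Aars2, which was higher, against 3.28% of all genes in either direction and 1.74% higher. The median log2 difference was 0.002 for the cytosolic and 0.026 for the mitochondrial genes, of which 10 of 20 and 7 of 16 were below 0, against 49.8% of all genes. Without overlap of the groups, 3 genes were higher and 0 lower, against 6.14% and 4.61% of all genes. These were Aars2 (log2 difference 0.15), Vars2 for valine (0.27) and Gars (0.07), each with an adjusted p of 1 in limma. Vars2 was at 9.15, 12.0 and 13.4 FPKM in control, 13.5, 14.5 and 13.8 FPKM at 10 µg/ml, and 9.25, 11.3 and 12.8 FPKM at 100 µg/ml. The 10 µg/ml libraries of Vars2 lay above both other groups, by a small gap from the highest control library.

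At 100 against 10 µg/ml, most cytosolic genes had lower values at the higher dose, and none passed the test. In limma 0 of the 36 genes passed the adjusted threshold, against 0.851% of all genes (0.215% higher and 0.636% lower). At an unadjusted p under 0.05, 5 cytosolic genes were lower and 0 higher, and 1 mitochondrial gene was lower and 1 higher, against 7.80% and 6.49% of all genes. Nars came nearest (log2 difference -0.31, adjusted p = 0.0609 in limma), followed by Aars (-0.26, adjusted p = 0.0787) and Cars (-0.27, adjusted p = 0.111). Nars passed without replicate 1 at 100 µg/ml (adjusted p = 0.0216 in limma; range over the alternatives 0.0173 to 0.244). The median was -0.07 over the cytosolic genes, of which 15 of 20 were below 0, and 0.01 over the mitochondrial genes, of which 7 of 16 were, against 49.8% of all genes. Without overlap of the groups, 2 cytosolic genes were higher and 6 lower, and 1 mitochondrial gene was higher and 2 were lower, against 9.37% and 9.99% of all genes. Lars2 differed by 0.29 and Vars2 by -0.31 between the doses, with adjusted p of 0.25 and 0.365 in limma. Since this comparison and that with control share the 100 µg/ml libraries, their values are not independent.

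The other genes of the ATF4 and amino acid response were looked at beside the synthetases. Of a list of 27, 26 were found by symbol, and 23 averaged 1 FPKM or more and were tested. At 100 µg/ml 3 fell and 0 rose at the adjusted threshold in limma. Ddit4, which codes for an inhibitor of mTORC1 signalling, was at 10.7, 11.2 and 11.3 FPKM in control and 6.0, 4.70 and 5.59 FPKM at 100 µg/ml (log2 change -0.91, adjusted p = 0.0132). Sesn2, a leucine sensor that also acts on mTORC1, was at 9.78, 11.9 and 12.2 FPKM in control and 6.86, 7.44 and 6.72 FPKM at 100 µg/ml (-0.62, adjusted p = 0.0142 in limma). Mthfd2, an enzyme of mitochondrial folate metabolism, was at 89.8, 91.4 and 91.0 FPKM in control and 71.5, 64.4 and 64.9 FPKM at 100 µg/ml (-0.43, adjusted p = 0.00962 in limma).

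In all 3 genes the 100 µg/ml libraries lay below every control and every 10 µg/ml library, and all 3 also fell between the doses (adjusted p from 0.0138 to 0.0249 in limma). The calls against control were lost with 1 library left out in several cases: Ddit4 without any 1 of the control libraries (adjusted p from 0.0521 to 0.0708 in limma), Sesn2 without control replicate 2 or 3 or replicate 3 at 100 µg/ml (0.0532 to 0.0807), and Mthfd2 without control replicate 2 (0.0561). Between the doses, Mthfd2 lost its call without any 1 library other than replicate 1 at 100 µg/ml (0.0513 to 0.121), Sesn2 without any 1 library at 10 µg/ml or replicate 3 at 100 µg/ml (0.0618 to 0.0943), and Ddit4 without replicate 1 or 3 at 10 µg/ml or replicate 2 or 3 at 100 µg/ml (0.0628 to 0.0794). Fitted on the 6 libraries compared alone, Sesn2 and Mthfd2 lost their calls against control (adjusted p = 0.0783 and 0.0663 in limma), and Sesn2, Mthfd2 and Ddit4 lost theirs between the doses (0.0727, 0.126 and 0.114). Of the 23 genes, 21 were below 0 with a median of -0.20, 15 were lower at an unadjusted p under 0.05 in limma, and 13 were lower without overlap. Of all genes tested, 50.4% were below 0, 9.69% were lower at an unadjusted p under 0.05 and 11.4% were lower without overlap, and 1.41% passed the adjusted threshold as lower.

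The regulators themselves did not pass. Atf4 was at 201, 196 and 192 FPKM in control and 216, 167 and 170.3 FPKM at 100 µg/ml, with replicate 1 above and the others below all control libraries. Its log2 difference was -0.10 (adjusted p = 0.601 in limma), and -0.22 (adjusted p = 0.0324) without that replicate, the lowest adjusted p over the alternatives, which ran up to 0.874. Eif2ak4, the gene of the kinase GCN2, differed by -0.06 and Ddit3, which codes for CHOP, by -0.35 (adjusted p = 0.786 and 0.366 in limma). FPKM does not show the translation of Atf4, by which this factor is mainly controlled. The promoter comparators Asns (-0.14) and Trib3 (-0.65) were lower without overlap and did not pass (adjusted p = 0.208 and 0.0863 in limma). Trib3 passed without replicate 1 at 100 µg/ml and after the GC and length correction (adjusted p = 0.0294 and 0.0299 in limma). Its adjusted p ran from 0.0294 to 0.230 over the alternatives. Asns and Trib3 lie outside the rule for naming genes and were chosen after their values were seen.

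**Figure D4:**
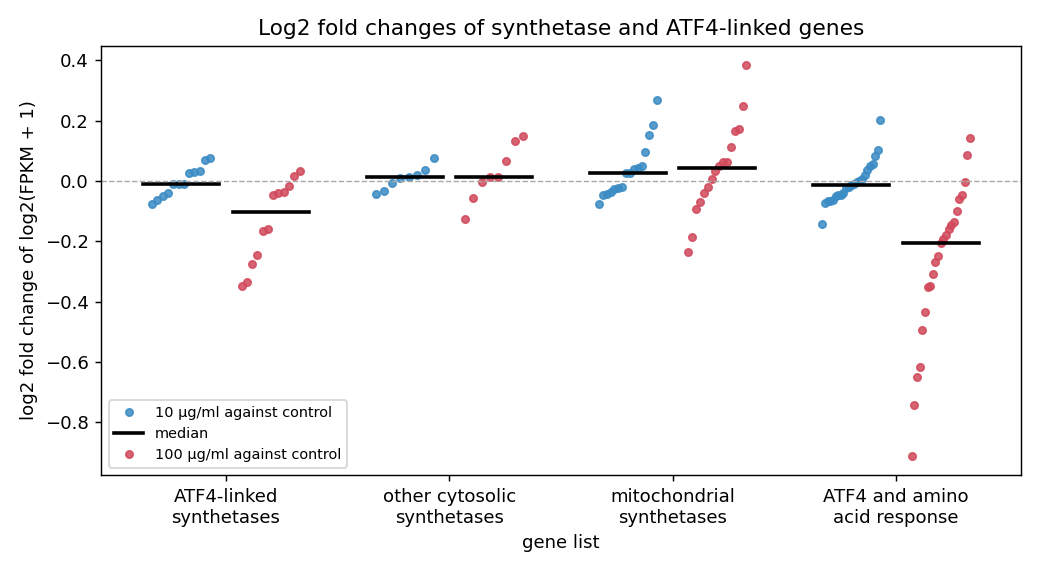
Log2 fold change of log2(FPKM + 1) against control (y axis) at 10 µg/ml (blue) and 100 µg/ml (red) for 4 gene lists on the x axis, one point per gene, with the median as a black line. At 100 µg/ml the medians are -0.10 for the ATF4-linked synthetases, 0.01 for the other cytosolic synthetases, 0.04 for the mitochondrial synthetases and -0.20 for the ATF4 and amino acid response genes.

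The remaining genes that work with the synthetases showed no adjusted call at 100 µg/ml in limma. Of 14 partner genes (scaffold proteins, tRNA-handling enzymes and editing factors), 1 was higher and 2 were lower at an unadjusted p under 0.05, with a median log2 difference of -0.02. Of 12 genes of mitochondrial translation, 1 was higher and 1 lower, with a median of 0.05. Of 7 genes of cytosolic elongation, 0 were higher and 2 lower, with a median of -0.12. Of 10 interferon-gamma response genes, to which Wars is often added, 6 were tested, 1 was higher and 1 lower, and the median was -0.02. Of all genes, 19.4% were at an unadjusted p under 0.05 in either direction, and nothing is read from these counts. Aimp1, a scaffold protein of the multisynthetase complex, was at -0.21 (adjusted p = 0.192, and 0.0393 without replicate 1 at 100 µg/ml, in a range of 0.0393 to 0.428 over the alternatives), and Trnt1, which adds the CCA end to tRNAs, at 0.19 (adjusted p = 0.109). Gtpbp3, which modifies mitochondrial tRNAs, was at 0.34 (adjusted p = 0.0634, and 0.048 after the GC and length correction, in limma). Aimp1, Trnt1 and Gtpbp3 were also chosen after their values were seen.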

How the data were processed

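The 9 RNA-seq libraries of BV2 cells were grouped by the treatment in their labels. After filtering on read quality, the authors aligned reads with TopHat and estimated the deposited FPKM with Cufflinks 2.1.1 on Ensembl release 77 (GRCm38 coordinates), with corrections for fragment bias and multi-mapping reads. Counts per gene were not used here, so depth is an estimate: at an assumed fragment length of 200 bases, 73.7% to 78.3% of low values lay within 0.25 of a whole fragment, where a flat spread gives 50%. FPKM is relative to each library's total, and a change in abundant transcripts can shift all others.

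FPKM was log-transformed as log2(FPKM + 1), and 11161 of 40993 genes, those averaging 1 FPKM or more, entered limma 3.58.1 (R 4.3.3). A single linear model held all 3 groups, variances were moderated with a mean trend (eBayes), and p-values were adjusted after Benjamini-Hochberg, with 0.05 as threshold. A fold change on this scale understates changes of low genes. The study used Cuffdiff, which needs alignments. Pair ratios, motif counts and figures were made with Python 3.11.15, pandas 2.3.3, numpy 2.4.6, scipy 1.17.1 and matplotlib 3.10.9. On simulated data with 200 changed genes among 11161 for 100 µg/ml against control, 0% were recovered at a log2 change of 0.3. At 0.6, 73.5% were recovered and 8 unchanged genes were called. In the data, 2160 genes had an unadjusted p under 0.05 in limma. The median SE was 0.058 for the cytosolic genes and 0.096 over all genes. The simulation therefore sets no detection limit for the members. The members and gene lists were chosen with earlier results of these data known, so no test over a list is given. Gatb is listed as Pet112 in the table. 1 gene of the partner list is not reported here. Named were all 36 members, list genes past the adjusted threshold in any comparison, Atf4, Eif2ak4 and Ddit3, and the markers Aif1, Itgam and Csf1r; other names are marked in the text. Promoter sequences come from the RefSeq table for GRCm38.p6. Alternatives were another pseudocount (0.1), no filter or a filter at 5 FPKM, median-of-ratios or quantile scaling, no trend, a replicate block, only the 6 libraries compared, each library left out, and a correction for GC content and transcript length.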

Additional observations from a re-analysis of the deposited data

How the results depend on the processing

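At 100 µg/ml against control, the count of lower cytosolic genes (2) became 1 with the replicate number as a block. It was 0 with only the 6 libraries compared and 0 to 4 with 1 library left out. Each library was also corrected by loess for the GC content and length of transcripts (chosen after seeing the data). The count was then 5, with Cars, Iars and Eprs added. Under quantile normalization Cars also passed (adjusted p = 0.0490 in limma). The count of lower mitochondrial genes (0) became 1 after the GC and length correction (Sars2), and that of higher ones (0) became 1 under quantile normalization (Lars2). With 1 library left out, the median log2 difference ran from -0.067 to -0.018 for cytosolic and from -0.010 to 0.066 for mitochondrial genes. At 10 µg/ml against control the mitochondrial median ran from -0.002 to 0.036. Between the doses, the count of lower cytosolic genes (0) became 1 under quantile normalization and under the GC and length correction, and ran from 0 to 1 with 1 library left out. The mitochondrial median there ran from -0.015 to 0.030.

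Over 18 alternatives, 23 of the 36 genes kept their direction at 100 µg/ml against control, and the 13 that turned differed by at most 0.093 log2 units. Direction turned for Qars (0.006) and Ears2 (0.019) under quantile normalization and for Vars (-0.040) under the GC and length correction. With 1 library left out, Cars2 ran from -0.046 to 0.120, Ears2 from -0.059 to 0.003, Gars from -0.061 to 0.010, Hars2 from -0.220 to 0.012, Iars2 from -0.038 to 0.057, Mars from -0.074 to 0.015, Mars2 from -0.146 to 0.038, Qars from -0.042 to 0.032, Rars and Vars from -0.019 to 0.045, Sars from -0.021 to 0.094, Vars2 from -0.184 to 0.075, Yars2 from -0.061 to 0.095 and Eif2ak4 from -0.149 to 0.036. The cause of these shifts was not tested.

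The replicate numbers did not pair the libraries: libraries with the same number had correlations of their deviations from the group means between -0.088 and 0.152. With the block, calls among all genes at 100 µg/ml went from 236 to 106, and Nars was the cytosolic gene still called, while Aars was not (adjusted p = 0.0657 in limma). Calls among all genes were 22 with only the 6 libraries compared, 725 after the GC and length correction and 31 to 539 with 1 library left out. Between the doses Sesn2 and Mthfd2 lost their calls with the block (adjusted p = 0.0572 and 0.0744 in limma).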
